A study of Drosophila melanogaster with 4 samples.

Results

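The mitochondrial ribosomal protein genes of Drosophila melanogaster were taken as the protein-coding genes of the Ensembl annotation BDGP6.54 whose symbol starts with mRpL or mRpS. These were 73 of 13945 protein-coding genes on the arms 2L, 2R, 3L, 3R, X and 4, with 47 genes for the large and 26 for the small ribosomal subunit. The data are ChIP-seq, sequencing of immunoprecipitated chromatin, of Chinmo fused to enhanced GFP in whole embryos 6 to 24 h old. All 4 libraries are biological replicates of 1 group, transgenic flies of the strain chinmo-GFP with an insertion at chinmo, and the labels name no treatment and no second genotype. The description gives an antibody against GFP, whereas the antibody field names chinmo itself. Possible control libraries named in the labels were not analysed here.

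Mitochondria carry their own ribosomes, which translate the few proteins that the mitochondrial genome encodes, all of them components of oxidative phosphorylation. The ribosomal RNAs come from the mitochondrial genome, and the ribosomal proteins are made from nuclear genes and imported, so the nucleus has to supply both subunits together. Chinmo is a nuclear BTB zinc finger protein known for setting the temporal identity of neurons and for maintaining testis stem cells. A ChIP peak marks a place where the protein, or a complex that holds it, was cross-linked to DNA.

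For each library 2 peak lists were used, a list passed by an irreproducible discovery rate (IDR) threshold and a longer ranked list that holds weaker peaks. The thresholded lists held 3435, 4415, 2222 and 3038 peaks on these arms in replicates 1 to 4, and the ranked lists 39707, 27009, 30017 and 34066. A gene had a summit when the highest point of a peak lay within 1000 bp of any of its transcription start sites (TSS). A gene was called when this held in the thresholded lists of at least 3 of the 4 libraries. Strength is given as a rank percentile, the percentage of the peaks in the same list whose signal was no higher, with 100 for the strongest peak. Read depth was unknown, and where no peak was listed, binding was not measured as absent. In whole embryos, binding in few cells and weak binding in many cells cannot be told apart. With 1 group and genes that are not replicates, counts and levels are described beside those of all protein-coding genes, and no test was made.

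The sequence just upstream of the start site is shown first for the members on which the results turn. Each stretch is read 5′ to 3′ on the strand of the gene, ends at the base before the TSS and comes from RefSeq (Drosophila Release 6, equal to dm6). Capitals mark ATCGAT, the core of the DNA replication-related element (DRE), a promoter element bound by the factors DREF and BEAF-32. The first set holds the 4 members called in all 4 libraries with a summit at the start site and an ATCGAT within 50 bp of the median summit, which are mRpL3 (chrX:15761148-15761247, plus strand), mRpL4 (chr2L:16329133-16329232, minus strand), mRpL10 (chr2L:203679-203778, plus strand) and mRpL30 (chrX:4647771-4647870, plus strand).
mRpL3: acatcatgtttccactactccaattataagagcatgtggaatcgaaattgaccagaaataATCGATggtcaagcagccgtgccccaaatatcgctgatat
mRpL4: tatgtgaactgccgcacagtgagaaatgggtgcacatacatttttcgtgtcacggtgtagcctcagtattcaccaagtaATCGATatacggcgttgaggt
mRpL10: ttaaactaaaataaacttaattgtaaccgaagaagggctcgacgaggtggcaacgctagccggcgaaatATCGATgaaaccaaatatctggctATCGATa
mRpL30: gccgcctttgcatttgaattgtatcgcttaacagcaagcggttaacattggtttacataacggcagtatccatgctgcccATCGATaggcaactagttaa

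A second set shows members whose peaks differed from those in place or in list. For mRpL33 the 101 bp around the median summit are shown, which lie upstream of the gene and beside the start of norpA (chrX:4322515-4322615, minus strand). mRpL47 (chr3R:9515909-9516006, minus strand) had strong peaks in the ranked lists and none in the thresholded lists. The last 40 bp before the start of mRpL48 (chr2L:1710422-1710461, plus strand) hold, in capitals, the reverse complement of GGTCACAC, the core of Ohler motif 1, a promoter element bound by the factor M1BP.
mRpL33: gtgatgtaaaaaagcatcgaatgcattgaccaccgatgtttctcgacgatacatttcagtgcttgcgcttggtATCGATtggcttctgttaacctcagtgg
mRpL47: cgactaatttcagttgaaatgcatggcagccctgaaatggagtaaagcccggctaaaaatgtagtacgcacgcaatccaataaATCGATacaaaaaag
mRpL48: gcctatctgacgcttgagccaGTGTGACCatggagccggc

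The third set holds the 3 members with no summit in any list. These were mRpL11 (chr3R:14511738-14511837, plus strand), mRpS2 (chr2L:4850420-4850519, minus strand) and mRpS10 (chr3R:15229565-15229664, plus strand). In mRpS2 the capitals mark CAGCTG, a variant of the E-box, the kind of element that basic helix-loop-helix proteins bind.
mRpL11: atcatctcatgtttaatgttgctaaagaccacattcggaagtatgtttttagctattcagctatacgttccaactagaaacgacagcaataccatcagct
mRpS2: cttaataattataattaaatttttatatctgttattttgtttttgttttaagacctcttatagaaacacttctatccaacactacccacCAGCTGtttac
mRpS10: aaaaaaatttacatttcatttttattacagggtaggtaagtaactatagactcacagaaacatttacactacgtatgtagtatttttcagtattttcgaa

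Of the 73 mitochondrial ribosomal protein genes, 12 were called in at least 3 libraries (16.4%), against 13.3% of all protein-coding genes. The thresholded lists placed a summit near 13, 17, 16 and 16 members in replicates 1 to 4. As shares these were 17.8%, 23.3%, 21.9% and 21.9%, against 16.2%, 20.8%, 13.2% and 17.4% of all genes. The members' share was the higher one in each of the 4 libraries, with a mean of 21.2% ± 2.37 (SD, n = 4) against 16.9% ± 3.14. A summit was present in all 4 lists at 10 members (13.7%), against 8.03% of all genes. At least 1 list held a summit at 25 members (34.2%), against 27.0% of all genes. The other 48 members (65.8%) had none, as had 73.0% of all genes. Libraries shared most of their members: of the 13 in replicate 1, 12 were also in replicate 2 and 12 in replicate 3. The smallest overlap, of replicates 1 and 4, was 10 members, which is 76.9% of the first and 62.5% of the second. The overlap over all protein-coding genes is not given, so this agreement cannot be called particular to the family.

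The ranked lists reached most of the family. They held a summit near 58, 53, 58 and 60 members in replicates 1 to 4, or 79.5%, 72.6%, 79.5% and 82.2%. Over all protein-coding genes the shares in the same lists were 66.8%, 57.9%, 59.6% and 66.1%. The means were 78.4% ± 4.09 for members and 62.6% ± 4.50 for all genes (SD, n = 4), and the members' share was higher in each library. A ranked summit was found in all 4 libraries at 41 members (56.2%), against 43.6% of all genes, and in none at 3 members (4.11%), against 18.8%. Among genes that had a ranked summit, strength differed little between members and the rest. The median percentile of members was 80.4, 73.0, 84.0 and 84.5 in replicates 1 to 4, and that of all genes was 79.0, 75.5, 76.9 and 79.3. The members' median was the lower one in replicate 2.

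**Figure D1:**
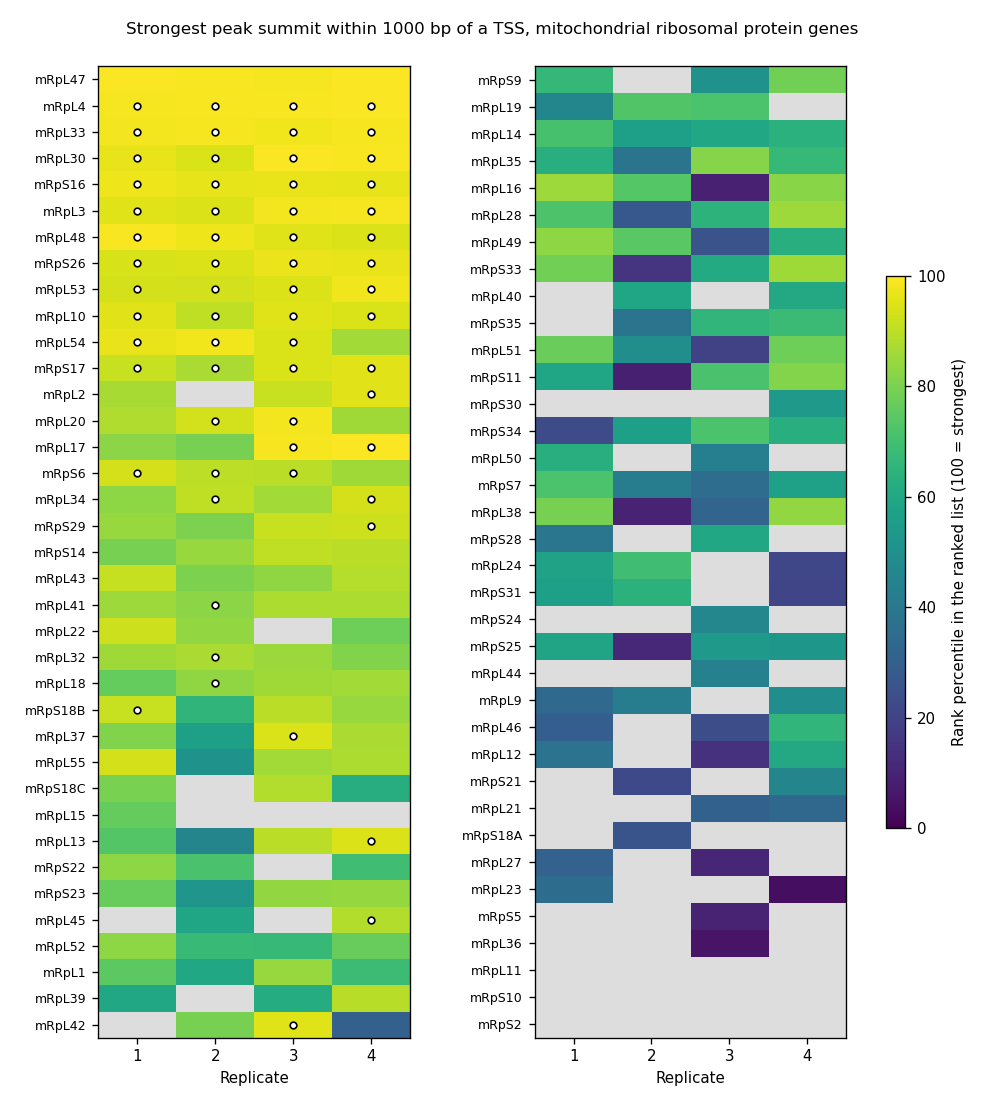
Rank percentile in the ranked list of the strongest summit within 1000 bp of a TSS (colour, 0 to 100) for each of the 73 mitochondrial ribosomal protein genes (vertical axis, ordered by mean percentile) in each replicate (horizontal axis); grey marks no summit, and a circle a thresholded summit. The circles gather at the top of the order, where mRpL47 stands first without any, and the 3 genes at the end are grey in all 4 libraries.

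Most of these genes share their upstream region with another gene. A head-to-head neighbour, meaning a gene on the opposite strand that starts at most 1000 bp upstream, was present for 58 of 73 members (79.5%), against 5052 of 13945 protein-coding genes (36.2%). The median distance between the 2 start sites was 283 bp for members and 298 bp for all such genes. Members with a head-to-head neighbour were called in 11 of 58 cases (19.0%), against 18.0% of all genes with such a neighbour. Of the 15 members without one, 1 was called (6.67%), against 10.6% of all genes without one. In the ranked lists, members with such a neighbour had a summit in 82.8%, 72.4%, 79.3% and 82.8% of cases. All genes with such a neighbour reached 82.3%, 73.6%, 72.6% and 81.1%, so the members were higher in 3 of the 4 libraries, by a mean of 79.3% against 77.4%. Beside genes of the same arrangement, the difference between members and the rest was thus 1.93 percentage points in the ranked lists, in place of 15.8 over all genes. In the thresholded lists it was 0.954 points, with members higher in 2 of 4 libraries, in place of 4.34. The number of start sites moved the comparison the other way. Of the members 67 had 1 TSS (91.8%), against 73.5% of all genes, and 12 of these 67 were called (17.9%) against 9.18% of all genes with 1 TSS. With both conditions, 11 of 53 members were called (20.8%), against 14.2% of the genes that met them.

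**Figure D2:**
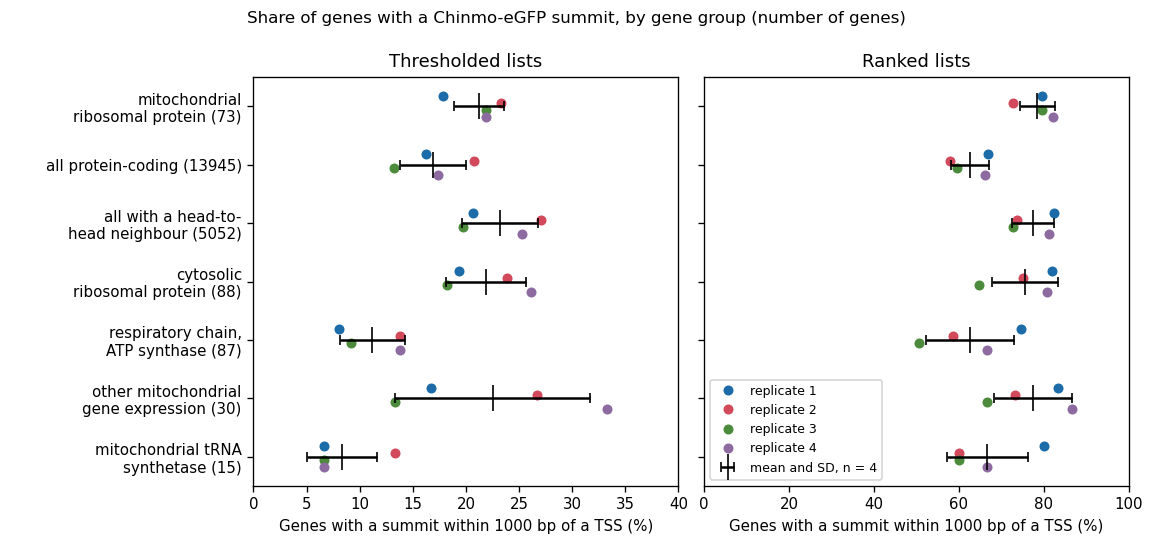
Percentage of genes with a summit within 1000 bp of a TSS (horizontal axes) in the thresholded lists (left) and the ranked lists (right), for the mitochondrial ribosomal protein genes and 6 comparison groups (vertical axis); points are the 4 replicates, and the bar is the mean with its SD. In each replicate the members lie to the right of all protein-coding genes in both panels, and their range overlaps that of all genes with a head-to-head neighbour.

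Among the large subunit genes, 8 of 47 were called (17.0%), against 13.3% of all protein-coding genes. A thresholded summit was present at 8, 13, 12 and 12 of the large subunit genes in replicates 1 to 4. Among the small subunit genes, 4 of 26 were called (15.4%), with 5, 4, 4 and 4 in the 4 libraries. The mean shares were 23.9% ± 4.72 and 16.3% ± 1.92 (SD, n = 4), against 16.9% ± 3.14 of all genes. The small subunit had a higher share than the large one in replicate 1. Members numbered within the range of bacterial ribosomal proteins, up to 36 for the large and 21 for the small subunit, were called in 8 of 42 cases (19.0%). Those with later numbers, many of them proteins that bacteria lack, were called in 4 of 31 cases (12.9%). Both shares stand beside the 13.3% of all protein-coding genes. The split follows the names alone, since mRpL47, for example, is the counterpart of bacterial L29. By arm, called members numbered 3 of 12 on 2L, 4 of 12 on 2R, 2 of 17 on 3L, 0 of 21 on 3R and 3 of 11 on X. Of all protein-coding genes, 12.8%, 14.5%, 13.3%, 12.9% and 13.3% were called on the same arms. On 3R, mRpL32, mRpL37 and mRpL45 had a thresholded summit in 1 library each.

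mRpL4 had the strongest thresholded peaks of the called members on average. It encodes the counterpart of bacterial L4, a protein that lines the tunnel through which the new chain leaves the ribosome, and its gene (FBgn0001995) lies at 16328059 to 16329132 on the minus strand of 2L. Its percentiles were 86.0, 93.7, 87.9 and 93.4 in replicates 1 to 4, which are ranks 483, 281, 270 and 201. The summits lay at -44, -34, -13 and -8 bp from its TSS, where negative values are upstream. All 4 lay within 44 bp upstream of the start site, and the head-to-head gene CG4440 starts 793 bp away.

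mRpL3 encodes the counterpart of bacterial L3, which reaches towards the peptidyl transferase centre. The gene (FBgn0030686) lies at 15761248 to 15762663 on the plus strand of X. Its thresholded percentiles were 47.95, 70.7, 79.1 and 88.2, the lowest in replicate 1. The summits were at -18, -25, 4 and -16 bp, close to the start site, and the head-to-head gene Graf starts 515 bp upstream.

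mRpL30, also on the plus strand of X (FBgn0029718, 4647871 to 4648646), encodes a large subunit protein with a bacterial counterpart. Its percentiles of 63.3, 67.6, 94.6 and 88.8 fell into a lower pair in replicates 1 and 2 and a higher pair in replicates 3 and 4. The summits lay at 3, -13, 3 and 3 bp, the closest to a start site of all called members. Its head-to-head neighbour HLH4C, which encodes a basic helix-loop-helix protein, starts 457 bp upstream.

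mRpL10 encodes the protein that anchors the stalk of the large subunit, where translation factors dock. The gene (FBgn0031231, 203779 to 204782, plus strand of 2L) was the 1 called member without a head-to-head neighbour. Its thresholded percentiles of 54.2, 45.1, 41.9 and 42.2 stayed close together near the middle of the lists. The summits were at -45, -27, -55 and -29 bp.

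mRpL48 (FBgn0031357, 1710462 to 1711465, plus strand of 2L) encodes a large subunit protein. The percentiles of its strongest thresholded summit were 89.7, 85.6, 42.6 and 44.8, high in replicates 1 and 2 and in the lower part of the list in the others. The summits lay at 32, 11 and 20 bp in replicates 1 to 3. In replicate 4 the strongest summit lay at -757 bp, and a weaker one, at percentile 38.2, lay at 11 bp. The start of CG17660 is 41 bp away on the opposite strand, so the peaks at the start of mRpL48 span both start sites.

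For the other called members most summits lay upstream, towards or past the start of the neighbour. mRpL33 (FBgn0040907, 4321764 to 4322231, minus strand of X) had percentiles of 83.4, 92.8, 72.8 and 84.9, high in all 4 libraries. Its summits at -317, -334, -335 and -335 bp were tightly placed, and the median lay 61 bp from the start of norpA, the gene for the phospholipase C of phototransduction. The peak is thus nearer to norpA than to mRpL33, and the same summit makes both genes called.

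mRpL53 (FBgn0050481, 13954195 to 13955664, plus strand of 2R) had percentiles of 34.0, 61.0, 37.9 and 78.4. The summits at -142, -154, -214 and -153 bp lay around the start of AGO1, which encodes an Argonaute protein of the microRNA pathway and begins 170 bp upstream of mRpL53. The annotation places the start of CG33155 at the same base as that of mRpL53, so a summit near that base counts for both. In replicate 3 a second, weaker summit at percentile 15.4 lay at -14 bp.

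mRpL54 (FBgn0034579, 21060789 to 21061587, plus strand of 2R) had percentiles of 64.1, 87.7 and 30.6 in replicates 1 to 3 and no thresholded summit in replicate 4. The summits at -55, -140 and -88 bp lay between its own start and that of CG15653, which is 242 bp upstream.

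The small subunit members that were called had lower percentiles than mRpL4 in each library. mRpS16 (FBgn0033907, 14172986 to 14173596, minus strand of 2R), the counterpart of bacterial S16, had percentiles of 74.4, 80.2, 59.3 and 61.95. Its summits at -206, -107, -108 and -111 bp all lay beyond the start of cg, the gene for the zinc finger protein Combgap, which is 97 bp upstream. The median summit lay 11 bp from that start.

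mRpS26 (FBgn0036774, 18106579 to 18107499, plus strand of 3L) had percentiles of 38.0, 70.8, 64.3 and 65.5, the lowest in replicate 1. The summits at -532, -566, -534 and -588 bp lay beyond the start of its head-to-head neighbour CG13698, 430 bp upstream, on the side of that gene. mRpS6 (FBgn0035534, 4364550 to 4365243, plus strand of 3L), the counterpart of bacterial S6, showed the same arrangement. Its percentiles were 33.6, 44.1 and 5.67 in replicates 1 to 3, with no thresholded summit in replicate 4. The summits at -530, -536 and -598 bp lay beyond the start of Cip4 closest to mRpS6, 448 bp upstream. Another annotated start of Cip4 lay 40 bp from the median summit. Cip4 encodes a protein of membrane bending and endocytosis.

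mRpS17 (FBgn0034986, 24173665 to 24174441, minus strand of 2R), the counterpart of bacterial S17, had percentiles of 20.6, 29.0, 31.5 and 55.1. Its strongest summits lay at 1, -369, -321 and -17 bp, so they were at its own start in replicates 1 and 4 and nearer to Nop60B in replicates 2 and 3. Nop60B encodes the pseudouridine synthase of nucleolar H/ACA complexes and starts 436 bp upstream. In replicate 4 both places held a thresholded summit, the second at -325 bp and percentile 48.9.

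**Figure D3:**
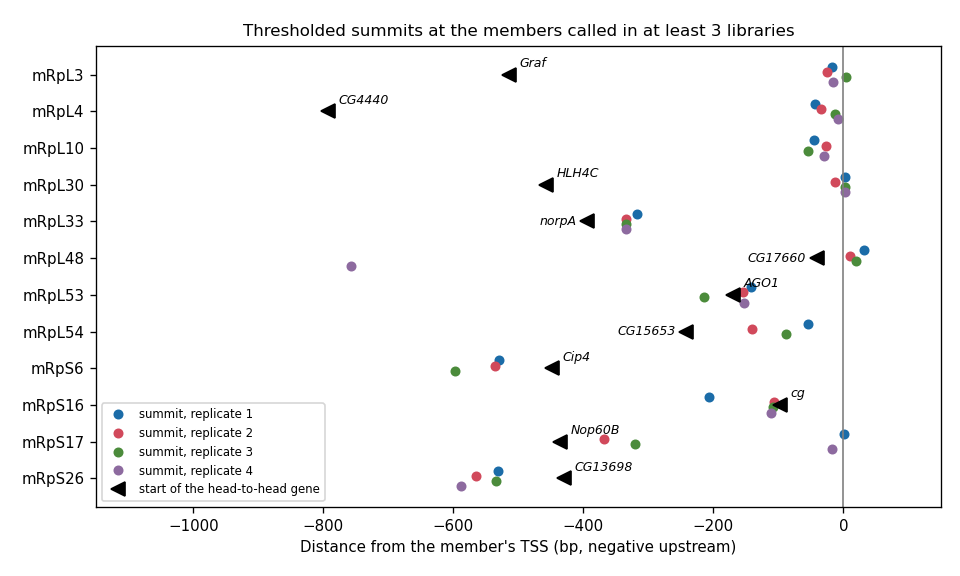
Distance of the strongest thresholded summit from the TSS (horizontal axis, bp, negative upstream) in each replicate (coloured points) for the 12 called members (vertical axis), with black triangles at the start of the head-to-head gene. The summits of mRpL3, mRpL4, mRpL10 and mRpL30 sit at the start site in all 4 libraries, whereas those of mRpL33, mRpS6, mRpS16 and mRpS26 sit near the start of the neighbour.

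Over the 12 called members, the median summit was upstream of the start in 10 (83.3%), against 73.6% of the 1854 called genes. The median distance from the start was 66.5 bp for members and 81.0 bp for all called genes, and 9 members (75.0%) had it within 200 bp, against 68.7%. Another gene's TSS lay within 1000 bp of the median summit for 11 of the 12 (91.7%), against 48.7% of called genes. The member's own start was the nearest for 7 of 12 (58.3%), against 76.9% of called genes. These values take the middle summit with the lower coordinate, which for mRpS17 lay at -17 bp. Its other middle summit lay at -321 bp, beyond 200 bp and nearer to Nop60B. The values were not recalculated with that summit. The order of members and all called genes in distance and in the share within 200 bp may therefore depend on this choice. When each summit was given to the gene with the nearest TSS alone, mRpL3, mRpL4, mRpL10, mRpL30 and mRpL48 stayed called, each in 4 libraries. These 5 are 6.85% of the members, against 10.1% of all genes, so the order of the shares was reversed. Per library, the mean share became 11.0%, against 13.1% of all genes, with members higher in 1 of 4 libraries. mRpL54 and mRpS17 then had 2 libraries each, mRpL53 had 1, and mRpL33, mRpS6, mRpS16 and mRpS26 had 0.

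A thresholded summit in 1 or 2 libraries was present at 13 further members. In 1 library it was present at 10 members (13.7%), against 7.79% of all genes. In 2 libraries it was present at 3 members (4.11%), against 5.94%. In replicates 2 and 3, mRpL20 had percentiles of 60.4 and 79.3 at -31 and -27 bp, close to its own start. mRpL17 had the strongest of these peaks, at percentiles 83.8 and 93.4 in replicates 3 and 4. Its summits at -355 and -368 bp lay close to the start of Tudor-SN, a gene for a Tudor-domain nuclease, 399 bp upstream.

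mRpL34 had percentiles of 46.2 and 35.6 in replicates 2 and 4. The summits at -350 and -336 bp were near the start of Dg, the dystroglycan gene, 384 bp upstream. Of the members with 1 library, mRpL2 reached percentile 52.2 and mRpS29 reached 26.0, both in replicate 4. The summit of mRpL2 at -648 bp lay 212 bp from the nearest annotated start of FoxK. That of mRpS29 at -19 bp lay 618 bp from the start of rad50. mRpL41, mRpL32 and mRpL18 reached 12.4, 28.3 and 14.2 in replicate 2, low in that list. Their summits at -676, -666 and -14 bp were nearer to annotated starts of CG8079, qless and Taz, at 86, 32 and 6 bp. The remaining ones were mRpL13, mRpL37, mRpL42, mRpL45 and mRpS18B. The member's own start was the nearest to the summit for 5 of the 13, and the matching share over all genes is not given.

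mRpL47 had the highest mean rank in the ranked lists of all 73 members and no thresholded summit in any library. It encodes the counterpart of bacterial L29, a protein at the exit of the ribosomal tunnel. Its ranks in the ranked lists were 206, 269, 441 and 262, or percentiles 99.5, 99.0, 98.5 and 99.2. The deposited score, which reaches 1000 at most, was 1000 in each library, whereas the lowest score in every thresholded list was 830. The summits lay at -53, -37, -100 and -57 bp, upstream of its start, and the head-to-head gene CG8176 starts 99 bp upstream. Its peaks were 111, 134, 396 and 119 bp wide, against a median width of 400, 430, 396 and 420 bp in the lists, so they were narrow in replicates 1, 2 and 4. Among ranked peaks with a score of 830 or more, 4.58%, 4.25%, 5.12% and 5.03% were missing from the thresholded lists. mRpL47 was the one member near such a peak and no thresholded peak, and this held in all 4 libraries. The sources used here do not give the step that left these peaks out. With them kept, 13 members were called (17.8%), against 13.9% of all genes.

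Other members without a thresholded summit had lower ranks. In all 4 ranked lists, mRpS14 had a mean percentile of 86.1 ± 5.07 and mRpL43 of 86.0 ± 5.0 (SD, n = 4). mRpL55, mRpS23 and mRpL52 had means of 79.7 ± 19.1, 74.2 ± 15.1 and 73.4 ± 7.74, and mRpL55 ranged from 51.5 in replicate 2 to 93.6 in replicate 1. Of the 48 members without a thresholded summit, 45 had a summit in at least 1 ranked list and 19 in all 4. The matching shares of all genes without a thresholded summit are not given. mRpL11, mRpS2 and mRpS10 had no ranked summit. They encode the counterparts of bacterial L11, at the stalk base, and of S2 and S10 of the small subunit. All 3 have a head-to-head neighbour, namely HtrA2 at 126 bp, Mon1 at 222 bp and Art3 at 257 bp. Of the 58 members with such a neighbour these are 5.17%, against 8.65% of all genes with one (437 of 5052) in no ranked list. The symbol rule leaves out tko and bonsai, which encode small subunit proteins under other names. tko had thresholded summits in replicates 2 and 4, at percentiles 51.6 and 73.6, and ranked summits in all 4 libraries at 89.7 ± 6.02. bonsai had a ranked summit in replicate 2 alone, at percentile 62.0.

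Among the other gene groups, the cytosolic ribosomal protein genes were nearest to the members in thresholded share. Of those, 13 of 88 were called (14.8%), with thresholded summits at 21.9% ± 3.75 and ranked summits at 75.6% (SD and means over n = 4). Over all protein-coding genes, 13.3% were called, with thresholded summits at 16.9% and ranked summits at 62.6%. The genes of the respiratory chain and ATP synthase, whose mitochondrially encoded partners these ribosomes make, had 7 of 87 called (8.05%) and thresholded summits at 11.2% ± 3.02. Of the mitochondrial aminoacyl-tRNA synthetase genes, 1 of 15 was called (6.67%), and of the other genes of mitochondrial gene expression 6 of 30. A further 15 names of that list matched no gene of the annotation. In the latter group the thresholded share was 22.5% ± 9.18, the widest spread between libraries of these groups.

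The promoters of the family were searched for 11 motifs on both strands, from 250 bp before to 50 bp after the first start site. The E-box variant CAGCTG was present in 40 of 73 member promoters (54.8%), against 17.7% of all protein-coding promoters and 22.0% of those with a head-to-head neighbour. In the cytosolic ribosomal protein genes it was in 9.09%, and in the respiratory chain and ATP synthase genes in 24.1%. There were 45 such boxes in the member promoters, with a median position of 2 bp from the start. Of the printed genes, mRpS2 has 2 of them, beginning at -245 and -11 bp. In mRpL11 the box begins at -5 bp and runs past the end of the printed stretch. Called members held the box in 6 of 12 promoters and the others in 34 of 61. The members with it were called in 6 of 40 cases (15.0%) and those without in 6 of 33 (18.2%), beside 15.7% and 12.8% of all protein-coding genes with and without it. The median ranked percentiles of members with and without the box were 79.5 ± 7.74 and 80.8 ± 4.58 (mean and SD of the medians of 4 libraries). Per library the medians were 79.9, 68.4, 85.0 and 84.6 with the box and 80.9, 74.3, 83.6 and 84.3 without. Members with it were thus lower in replicates 1 and 2 and higher in replicates 3 and 4.

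The DRE core ATCGAT was in 27 member promoters (37.0%), against 23.3% of all promoters and 34.0% of those with a head-to-head neighbour. The full palindrome TATCGATA, which contains the core, was in 15 (20.5%), against 9.36% and 15.8%. Members with the core were called in 6 of 27 cases (22.2%), and those without in 6 of 46 (13.0%). Over all protein-coding genes the shares were 24.2% with the core (784 of 3245) and 10% without (1070 of 10700), in the same order. For the palindrome, 3 of 15 members with it and 9 of 58 without were called, beside 28.9% and 11.7% of all genes. Among members with a head-to-head neighbour the order was reversed, at 2 of 12 (16.7%) with the palindrome and 9 of 46 (19.6%) without. All genes with such a neighbour had 29.1% and 15.9%. The mean thresholded shares of these members were not reversed, at 31.2% with and 22.3% without, beside 35.9% and 20.8% of all genes with such a neighbour. Nor was the order for the core, at 22.7% of these members called with it and 16.7% without. All genes with such a neighbour had 27.6% and 13.0%, a wider gap. Per library, 25.9%, 33.3%, 33.3% and 29.6% of members with the core had a thresholded summit, against 13.0%, 17.4%, 15.2% and 17.4% of those without. The means were 30.6% ± 3.55 and 15.8% ± 2.08 (SD, n = 4), beside 29.1% ± 3.65 and 13.2% ± 3.27 over all genes. The median ranked percentiles were 85.4 ± 3.05 with the core and 72.4 ± 9.34 without, beside 85.6 ± 2.83 and 73.3 ± 2.36 over all genes. Within 50 bp of the median summit, 6 of the 12 called members held the core, against 401 of 1417 summit windows of all called genes (28.3%). These were mRpL3, mRpL4, mRpL10, mRpL30, mRpL33 and mRpS17. The centre of the core was 18.5, 5.5, 16.5, 20.5, 25.5 and 10.5 bp from the summit in that order. The printed sequences show this core for mRpL4, mRpL10, mRpL30 and mRpL33, whereas in mRpL3 the nearest core spans the start site, past the end of the printed stretch. With an even number of summits, the median is the middle one with the lower coordinate. The 2 middle summits of mRpS17 lay 304 bp apart, and those of the other called members at most 32 bp. With the middle summit of the higher coordinate, the core was within 50 bp at the same 6 members and in 398 of 1417 windows (28.1%). The core was added to the motifs after the sequences had been seen.

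**Figure D4:**
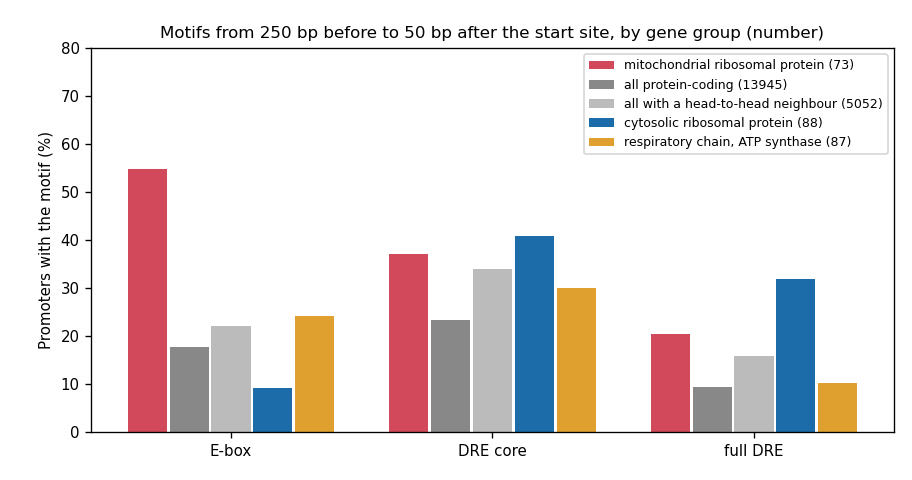
Percentage of promoters (vertical axis, from 250 bp before to 50 bp after the first start site) that hold the E-box CAGCTG, the DRE core ATCGAT or the full DRE TATCGATA (horizontal axis), in 5 gene groups (bar colours). The E-box bar of the members stands at 54.8%, above the other 4 groups, whereas for the DRE the cytosolic ribosomal protein genes have the tallest bar.

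The other motifs were less frequent or near the level of all promoters. GGTCACAC, the Ohler motif 1 core, was in 8 member promoters (11.0%), against 7.70% of all. CATCNCTA, the Ohler motif 7 core, was in 8 (11.0%), against 6.42%. TATAAA was found in 34 (46.6%), against 45.8%. GAGAGAG was in 1 (1.37%), against 5.87%. TGCGCA, the short form of the site of mammalian NRF-1, a regulator of nuclear genes for mitochondrial proteins, was in 6 (8.22%), against 6.96%. The full NRF-1 palindrome, the ERR site TCAAGGTCA and the ETS site CCGGAAG were in 0 of 73, against 0.208%, 0.122% and 1.09% of all promoters. The median GC content was 34.7% for member promoters and 38.0% for all promoters, and its part in these shares was not tested.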

How the data were processed

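The peak lists were deposited by the authors, per the labels on assembly dm6. Each peak carries a signal value from the authors' peak calling, with no unit stated, and a deposited score from the IDR analysis. Signal served only to rank peaks within 1 list. The sources used here name no aligner and no peak caller. Per the deposited README texts, the thresholded lists derive from 1 more file than the ranked lists. Columns of per-sample values left unmapped numbered 0. Summits were the peak start plus the deposited summit offset. Peaks off the 6 arms were left out (3 thresholded peaks of replicate 3, and 18, 25, 149 and 84 ranked peaks of replicates 1 to 4). Gene models were from Ensembl release 115, and sequences from RefSeq Release 6, with which 73 of 73 members had the same coordinates. All steps ran in Python 3.11.15 with numpy 2.4.6, and figures in matplotlib 3.10.9. The scoring was tested on simulated peaks.

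Members, lists and motifs were chosen with earlier results of these data known. Named were all called members, up to 8 others with thresholded summits, up to 6 with ranked summits alone, and members with none. Also named were mRpL48, tko and bonsai, and the 2 highest-ranked genes of each comparison list. Of the neighbours within 1000 bp of the members' thresholded summits, most but not all were named. Other named members were added after their values were seen. Depth is unknown, so no intervals are given. Replicates were said to be biological, and the spread is that of the 4 libraries.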

Additional observations from a re-analysis of the deposited data

How the results depend on the processing

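The members were compared with all protein-coding genes or, in restricted settings, with all genes under the same restriction. The thresholded and ranked shares were compared as means over libraries. For these means and for the called share, members stayed above the compared genes under every alternative run except where each summit went to the nearest TSS alone. That setting gave 5 called members (6.85% against 10.1%), a thresholded share of 11.0% (against 13.1%) and a ranked share of 52.4% (against 53.4%), in place of 12, 21.2% and 78.4%. The count of 12 became 19 with the conservative list of the whole series (26.0% against 23.1%), 44 with its longest list (60.3% against 44.3%) and 6 with the upper 50% of each list (8.22% against 7.31%). The thresholded share became 26.7% within 2000 bp (against 20.5% of all genes) and 17.8% within 500 bp (against 14.5%). Within 500 bp the members were higher in 3 of 4 libraries. It became 16.8% with lists of equal length (against 12.8%) and 12.0% with the upper 50% of each list (against 9.80%). With ranked peaks of score 540 or more it became 31.8% (against 25.3%). Among genes with a head-to-head neighbour it was 24.1%, against 23.2% of all such genes, with members higher in 2 of 4 libraries. Among those that also have 1 TSS it was 25.9%, against 18.8%. Both settings were chosen after seeing the data. So were keeping ranked peaks at or above the lowest thresholded score and the choice of the middle summit. The ranked share became 88.4% within 2000 bp (against 73.9% of all genes) and 65.1% within 500 bp (against 52.6%). The median ranked percentile of 80.5 became 69.2 (against 44.0) with members lacking a summit set to 0. Leaving out each library in turn gave 13 to 15 called members (with 2 of 3 libraries required). These were 17.8% to 20.5%, against 15.0% to 17.6% of all genes. The thresholded shares were 20.5% to 22.4% (against 15.6% to 18.1%) and the ranked shares 77.2% to 80.4% (against 61.2% to 64.2%). The median percentiles were 79.2 to 83.0 (against 77.1 to 78.4). Without replicate 3 the called shares of members and all genes were 17.8% and 17.6%. Ranking by the deposited p-value column was not run, since it is constant. The lists hold no read counts, so peaks missing for lack of depth cannot be told from weak binding. Ranks from lists of different lengths are comparable only within a list, and a summit between close start sites cannot be given to 1 gene.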

Other observations

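The E-box CAGCTG was also common in promoters of other genes of mitochondrial translation and gene expression. It was present in 46.7% of the promoters of the 15 mitochondrial aminoacyl-tRNA synthetase genes and in 46.7% of those of the 30 matched genes in the list of other mitochondrial gene expression. Both shares were nearer to the 54.8% of the mitochondrial ribosomal protein genes than to the 17.7% of all protein-coding genes.

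Some single genes of the comparison lists had ranks near or above the highest of the mitochondrial ribosomal protein genes, mRpL47, at 99.1 ± 0.404. mtSSB, which encodes the single-stranded DNA binding protein of mitochondrial DNA replication, had a thresholded summit in all 4 libraries and a mean ranked percentile of 99.7 ± 0.137 (SD, n = 4). ATPsynF, an ATP synthase gene, had 99.5 ± 0.323 and was also present in all 4 thresholded lists. RpL32 had 99.4 ± 0.569 and RpS2, below mRpL47, had 97.5 ± 2.16, both in 4 thresholded lists. COX7AL2 had 99.7 ± 0.139 and, like mRpL47, no thresholded summit in any library. mtTFB1, AspRS-m and PheRS-m were lower, at 94.1 ± 4.57, 89.7 ± 9.31 and 84.2 ± 11.7.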
